A study of Mus musculus with 4 samples.

Results

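The genes described here are 38 genes of glycolysis and of the cellular response to low oxygen, chosen by symbol from the 18702 genes listed for each library. They fall into 25 metabolic genes, namely 17 glycolytic enzymes, 4 carriers of glucose or lactate and 4 kinases that set the flow through the pathway, and 13 hypoxia genes, namely 2 oxygen-regulated subunits of hypoxia-inducible factor (HIF) and 11 HIF targets outside glucose metabolism. All 38 were listed in every library and all 38 reached the mean of 1 FPKM required for testing, although Car9 did so only through its values in the knockout. RNA sequencing of total RNA was done on eye tissue from C57BL/6 mouse embryos, with 2 libraries from Anp32b−/− embryos (KO) and 2 from Anp32b+/+ embryos (WT). ANP32B is an acidic nuclear protein that binds histones, and the series asks how its loss bears on the growth of the eye and on Pax6. The sources used here do not give the embryonic stage, the sex, the number of embryos per library or the part of Anp32b that was deleted. They also do not state that the replicates are separate embryos. The p-values therefore measure the spread between these libraries only, and that spread may be technical.

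Glycolysis converts glucose to pyruvate, and lactate dehydrogenase can then turn pyruvate into lactate. Cells with little oxygen, and many growing cells with enough of it, rely on this route, and the retina is known for a high output of lactate. HIF is a transcription factor of an alpha and a beta subunit. With oxygen present, prolyl hydroxylases of the EGLN family mark the alpha subunits for destruction, and with little oxygen the alpha subunits accumulate and raise the transcription of glycolytic genes and of genes for vessels, matrix and mitophagy through a short promoter motif, ACGTG or GCGTG. Most control of HIF alpha is exerted on the protein, which RNA sequencing does not measure.

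Values are FPKM, a fragment count divided by transcript length and by the total of the library, as the authors deposited them. Low values, picked with a preset depth close to the result, place the depth of the libraries at about 17820000 to 17980000 fragments. Log2 fold changes are KO minus WT of log2(FPKM + 1), a scale that makes the change of low genes look smaller. Simple folds are ratios of mean FPKM. Adjusted p-values are from limma over 13887 genes. The replicates were so close that 54.6% of all genes tested passed an adjusted p of 0.05, 33.5% as higher in KO and 21.1% as lower, so a pass alone says little, and sizes are given throughout. Anp32b stood at 94.53 and 92.67 FPKM in KO libraries, against 163.18 and 179.12 FPKM in WT libraries. The KO mean was thus 54.7% of the WT mean, so the value of the whole gene does not itself show a homozygous loss, and the genotype is taken from the labels. Pax6 stood at 107.76 and 110.97 FPKM in KO, against 160.94 and 158.43 FPKM in WT. In the same libraries the makeup of the tissue differed. The summed level of 16 crystallins, the proteins of the lens, was 6097 and 6145 FPKM in KO libraries, against 69496 and 69694 FPKM in WT libraries. The summed level of 12 genes of retinal neurons was 344.9 and 348.5 FPKM in KO, against 527.3 and 533.6 FPKM in WT, that of 16 skeletal muscle genes 3784 and 3875 FPKM in KO, against 1815 and 1917 FPKM in WT, and that of 12 mesenchyme genes 3651 and 3671 FPKM in KO, against 1701 and 1667 FPKM in WT. The summed level of 10 genes of retinal progenitors was 912.1 and 911.5 FPKM in KO, against 1357 and 1367 FPKM in WT, and 8 of the 10 were lower. That of 7 erythroid genes was 9621 and 9945 FPKM in KO, against 6279 and 6737 FPKM in WT, and 6 of the 7 were higher. Endothelial genes were higher in 8 of 10 cases and macrophage genes in 11 of 11. In bulk tissue, more cells of a type and more RNA per cell cannot be told apart, and the part of these shifts in the results below was not tested.

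The hypoxia targets outside metabolism rose further than the glycolytic genes. Of the 11 targets, 9 were higher in KO and 1 was lower, and the median log2 fold change was 0.73. Of the 25 metabolic genes, 17 were higher and 2 lower, with a median of 0.26. Of all genes tested, 33.5% were higher and 21.1% lower, and the median was 0.04. Rises of at least 0.5 on the log2 scale that also passed the test were found in 8 of the 11 targets (72.7%) and in 7 of the 25 metabolic genes (28.0%), beside 11.7% of all genes tested. Falls of that size were found in 1 of the 25 metabolic genes and 0 of the targets, beside 3.94% of all genes tested. Both KO values lay above both WT values in 30 of the 38 genes and below them in 5, beside 45.6% and 32.4% of all genes tested (77.9% for either direction), and the groups overlapped in 3. The difference between the groups of genes is a description, and no test was made of it. Scaling bears on the counts. Where crystallin and erythroid genes were left out of the scaling, the metabolic genes were 15 higher and 5 lower (75.0% of calls higher, against 89.5% with FPKM), while the share of higher calls over all genes tested was 44.9%, against 61.3% with FPKM. With TPM, which rescales the FPKM values of a library to a fixed sum, they were 21 higher and 1 lower, and 80.6% of the calls over all genes were higher. The targets were 9 higher under the first and 10 higher under the second, with 1 lower under both. TPM moved the median of all genes to 0.16. Relative to that median under each scaling, the metabolic median lay between 0.21 and 0.22 above it and the median of the targets between 0.69 and 0.70 above it.

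**Figure D1:**
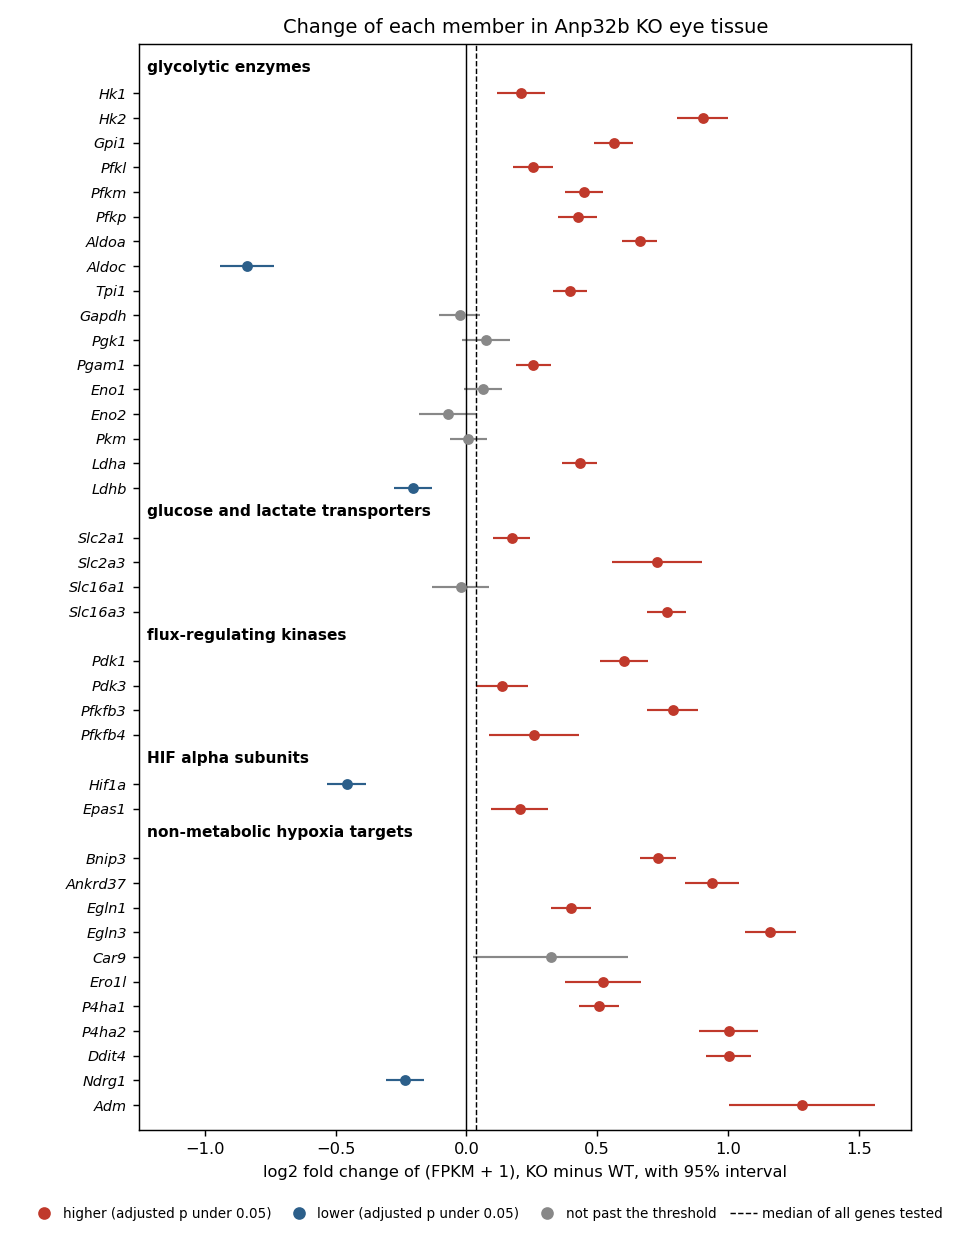
Log2 fold change of each of the 38 genes, KO minus WT, on the log2(FPKM + 1) scale, with its 95% interval from limma, ordered by role. Red points passed the test as higher and blue points as lower, grey points did not pass, and the dashed line is the median of all genes tested, 0.04. The points of the hypoxia targets reach 1.28, while those of the enzymes from Gapdh to Pkm, apart from Pgam1, lie close to 0.

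**Figure D2:**
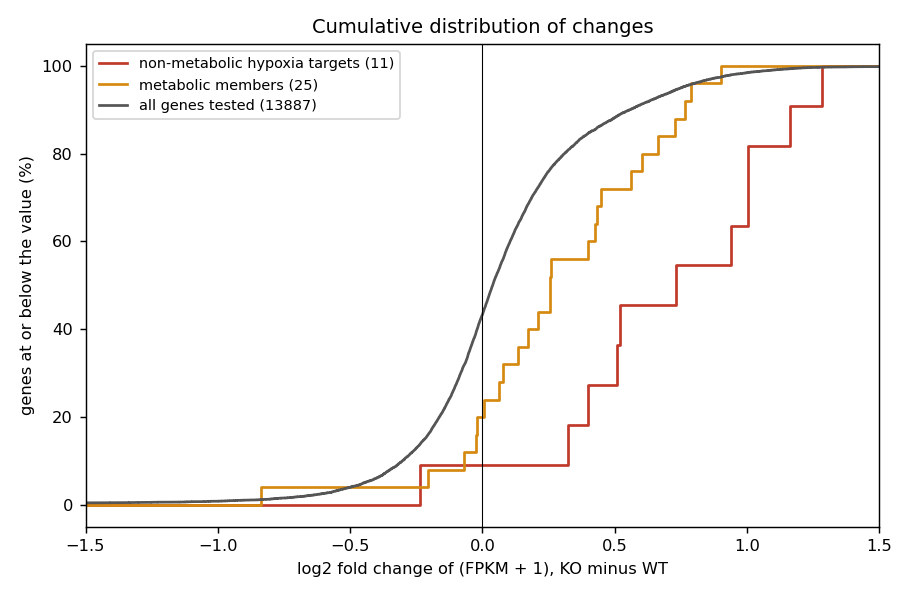
Share of genes (%) at or below each log2 fold change (KO minus WT), for the 11 hypoxia targets, the 25 metabolic genes and all 13887 genes tested. The curve of the targets lies to the right of that of the metabolic genes over most of its range, with medians of 0.73 and 0.26.

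The promoters of 5 members are printed because they span the pattern. They belong to 3 targets with large rises and different numbers of HIF motifs, to Ldha, the metabolic gene with the most motifs, and to Hif1a, which fell. Each line holds the 250 bases before a transcript start in RefSeq's GRCm38.p6 annotation, read on the strand of the gene, and capitals mark ACGTG or GCGTG on either strand. The sequence CACGTG reads the same on both strands and counts as 2 matches to ACGTG.
Adm (chr7:110627407-110627656, plus strand): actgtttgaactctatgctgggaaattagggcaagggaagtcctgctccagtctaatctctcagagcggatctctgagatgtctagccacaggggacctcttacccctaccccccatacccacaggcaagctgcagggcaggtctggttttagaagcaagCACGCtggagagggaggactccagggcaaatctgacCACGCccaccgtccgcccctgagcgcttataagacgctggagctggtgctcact
Egln3 (chr12:54203875-54204124, minus strand): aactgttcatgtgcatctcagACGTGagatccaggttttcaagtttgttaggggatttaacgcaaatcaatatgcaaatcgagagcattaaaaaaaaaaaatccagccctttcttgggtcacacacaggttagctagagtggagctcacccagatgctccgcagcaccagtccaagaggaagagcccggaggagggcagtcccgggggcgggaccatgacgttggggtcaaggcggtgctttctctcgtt
Ankrd37 (chr8:45999851-46000100, minus strand): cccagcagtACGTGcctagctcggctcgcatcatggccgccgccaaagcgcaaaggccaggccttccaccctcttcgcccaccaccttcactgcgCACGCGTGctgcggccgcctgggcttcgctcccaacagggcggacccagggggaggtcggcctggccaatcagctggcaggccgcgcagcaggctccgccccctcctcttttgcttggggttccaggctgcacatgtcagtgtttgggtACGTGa
Ldha (chr7:46845554-46845803, plus strand): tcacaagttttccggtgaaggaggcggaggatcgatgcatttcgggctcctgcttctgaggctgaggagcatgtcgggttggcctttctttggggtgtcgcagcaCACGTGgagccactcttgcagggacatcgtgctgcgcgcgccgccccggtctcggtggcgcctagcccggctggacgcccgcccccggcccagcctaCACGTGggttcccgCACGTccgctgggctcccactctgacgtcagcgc
Hif1a (chr12:73907617-73907866, plus strand): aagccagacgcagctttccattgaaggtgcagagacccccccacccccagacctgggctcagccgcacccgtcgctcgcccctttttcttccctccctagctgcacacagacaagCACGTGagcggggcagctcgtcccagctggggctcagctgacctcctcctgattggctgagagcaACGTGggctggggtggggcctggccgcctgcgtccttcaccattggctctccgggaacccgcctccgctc

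Over full windows of 300 bases, which add 50 bases after the start, 35 of the 38 genes had an entry, in 48 windows. At least 1 match to either motif was found in 40 of the 48 windows (83.3%), against 60.3% of 14175 windows of genes tested and 43.8% of all 32851 windows. The hypoxia genes had a match in 11 of 11 windows and the metabolic genes in 29 of 37 (78.4%). Egln3, with a log2 fold change of 1.16, had 1 match in its window, Adm had 2, and Ankrd37 4. Hif1a, which fell, had 3, while Ldha had 7 in its first window. Gpi1 and Tpi1, which rose, and Eno2, which did not pass the test, had 0 matches in their windows. A match is a description of the letters and not a bound site, and some of these genes are known to carry their HIF sites elsewhere.

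Of the HIF alpha subunits, Hif1a fell and Epas1 rose slightly. Hif1a (chromosome 12, 73901324 to 73947554, GRCm38) encodes HIF-1 alpha, the widely expressed subunit that drives most glycolytic targets. It stood at 51.65 and 50.88 FPKM in KO libraries, against 71.85 and 69.71 FPKM in WT libraries, so that the KO mean was 72.4% of the WT mean (log2 fold change −0.46, SE 0.03, adjusted p = 3.41e-05). Epas1 encodes HIF-2 alpha, known from endothelium and other stromal cells. Its values were 10.55 FPKM in both KO libraries and 8.98 and 9.08 FPKM in WT libraries (0.20, adjusted p = 0.0085). Neither gene's groups overlapped, as held for 77.9% of all genes tested. The call of Epas1 was lost without KO replicate 1 (adjusted p = 0.0517), without KO replicate 2 (0.0523) and with scaling that leaves out crystallin and erythroid genes (0.0549), within a range of 0.000929 to 0.0549 over the alternatives.

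Among the oxygen sensors, Egln3 rose more than Egln1. Egln3 (chromosome 12, 54178981 to 54203874) encodes the prolyl hydroxylase that is itself most strongly induced by hypoxia. It stood at 21.06 and 21.20 FPKM in KO libraries, against 8.79 and 9.0 FPKM in WT libraries, a 2.38-fold rise (log2 fold change 1.16, SE 0.04, adjusted p = 2.44e-06). Egln1 (chromosome 8, 124908587 to 124949254), the main sensor in most cells, stood at 52.02 and 52.98 FPKM in KO, against 40.18 and 38.94 FPKM in WT (0.40, adjusted p = 7.77e-05). In both genes the KO values lay above the WT values, as held for 45.6% of all genes tested. Egln1 remained the higher of the pair in FPKM in every library.

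Targets in secretion, growth control and mitophagy also rose. Adm (chromosome 7, 110627657 to 110629820), for the vasodilator peptide adrenomedullin, had the largest fold of the 38 genes. It was low in every library, at 3.58 and 4.43 FPKM in KO and 1.21 and 0.90 FPKM in WT, a 3.80-fold difference of means (1.28, SE 0.12, adjusted p = 0.000131). By the estimated depth these values rest on about 89 and 110 fragments in KO and 30 and 22 in WT. Ddit4 encodes an inhibitor of mTOR signalling that is induced by several stresses besides hypoxia. Its levels were 74.44 and 73.46 FPKM in KO, against 35.44 and 37.44 FPKM in WT (2.03-fold, adjusted p = 2.51e-06). Ankrd37, a small ankyrin repeat gene and known HIF target, stood at 16.57 and 16.20 FPKM in KO, against 8.01 and 8.13 FPKM in WT (2.03-fold, adjusted p = 7.1e-06). Bnip3, a mitophagy receptor of the outer mitochondrial membrane, stood at 99.03 and 101.08 FPKM in KO, against 59.58 and 60.10 FPKM in WT (1.67-fold, adjusted p = 3.6e-06). In all 4 genes every KO library was above every WT library, as held for 45.6% of all genes tested.

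The targets that act on proteins of the secretory pathway and matrix rose as well. P4ha2 and P4ha1 encode catalytic subunits of collagen prolyl hydroxylase. P4ha2 stood at 24.03 and 24.2 FPKM in KO, against 11.1 and 12.0 FPKM in WT (2.09-fold, adjusted p = 7.1e-06), and P4ha1 at 45.50 and 44.87 FPKM in KO, against 31.16 and 31.82 FPKM in WT (1.43-fold, adjusted p = 2.51e-05). The share of P4ha2 in the sum of both was 34.6% and 35.0% in KO libraries, against 26.3% and 27.4% in WT libraries. Ero1l, an oxidase of the endoplasmic reticulum that helps form disulfide bonds, stood at 20.05 and 18.90 FPKM in KO, against 14.06 and 12.51 FPKM in WT (1.47-fold, adjusted p = 0.00042). All 12 mesenchyme genes, collagens among them, were higher in the same KO libraries (median 1.13 on the log2 scale), beside 33.5% of all genes tested. Whether that shift bears on P4ha1, P4ha2 and Ero1l was not tested.

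The remaining pair of targets did not rise by the test. Ndrg1 (chromosome 15, 66929318 to 66969641), a stress-responsive gene that HIF and other factors induce and that is known from Schwann cells and epithelia, fell to 83.19 and 80.30 FPKM in KO, against 96.98 and 95.90 FPKM in WT (log2 fold change −0.24, SE 0.03, adjusted p = 0.000693). It was the single target whose KO values both lay below WT. Car9, a cell surface carbonic anhydrase and a common marker of hypoxic tumours, stood at 1.57 and 1.10 FPKM in KO and 0.80 and 0.92 FPKM in WT, which corresponds to about 57 and 40 fragments in KO and 29 and 33 in WT. Its log2 fold change was 0.32 (95% interval 0.03 to 0.62, adjusted p = 0.0647). It passed with TPM (0.52, adjusted p = 0.0289) and without KO replicate 2 (0.47, adjusted p = 0.0364), and its adjusted p ranged up to 0.288 over the alternatives.

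**Figure D3:**
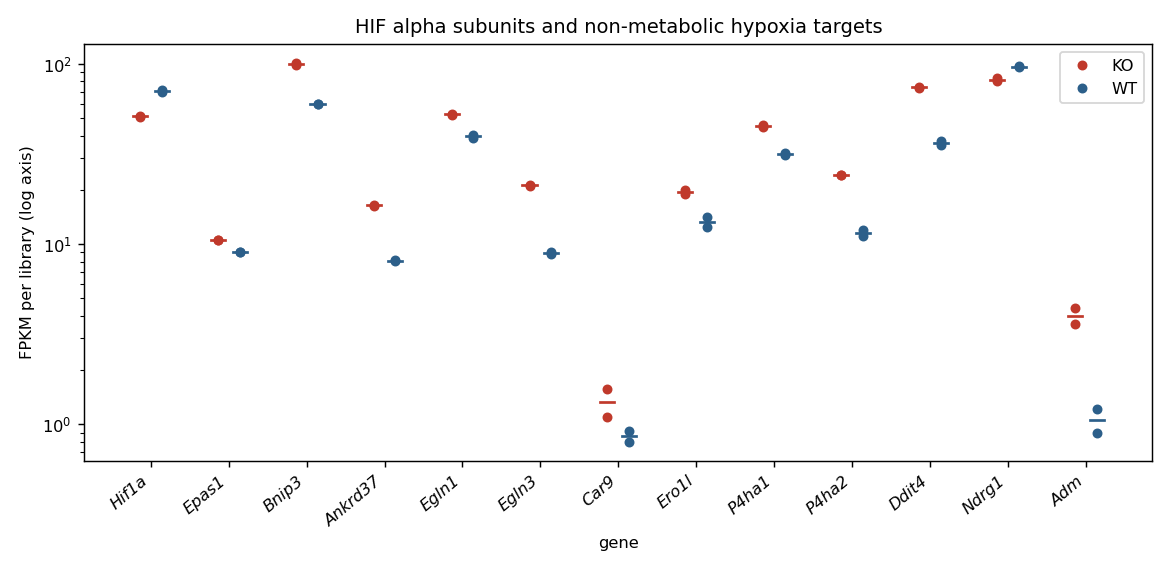
FPKM in each library (log axis) of the 2 HIF alpha subunits and the 11 non-metabolic hypoxia targets, KO left and WT right, with a bar at the mean of each pair. Hif1a and Ndrg1 are lower in KO, the KO points of the other genes lie above the WT points, and Car9 and Adm have the lowest levels.

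The changes of the glycolytic enzymes, summed by step, differed along the pathway. Summed over the listed enzymes of a step, the steps from hexokinase to triose phosphate isomerase were between 1.29-fold and 1.54-fold higher in KO, while those from glyceraldehyde phosphate dehydrogenase to pyruvate kinase were between 0.982-fold and 1.19-fold, and lactate dehydrogenase was 1.28-fold higher. The summed level for aldolase was 618.9 and 618.3 FPKM in KO, against 401.1 FPKM in both WT libraries, and that for enolase 894.6 and 881.9 FPKM in KO, against 853.9 and 849.8 FPKM in WT. This grouping of steps was made after the values were seen and carries no test. The steps also differ in how much sequence their genes share with other genes, as given below.

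In the first part of the pathway, 8 of 9 enzymes rose, beside 33.5% of all genes tested, a count within a grouping made after the values were seen. Hk2 (chromosome 6, 82725025 to 82774454), the inducible hexokinase that traps glucose in the cell, stood at 19.66 and 19.30 FPKM in KO, against 9.86 and 10.05 FPKM in WT, a 1.96-fold rise (log2 fold change 0.90, SE 0.04, adjusted p = 6.34e-06). Hk1, the constitutive hexokinase, stood at 29.24 and 28.67 FPKM in KO, against 25.53 and 24.35 FPKM in WT (0.21, adjusted p = 0.00344). Hk1 thus stayed the more abundant in every library, but the share of Hk2 in the sum of both was 40.2% in each KO library, against 27.9% and 29.2% in WT libraries. Gpi1, which interconverts the glucose and fructose phosphates, stood at 214.50 and 218.96 FPKM in KO, against 149.18 and 143.69 FPKM in WT (1.48-fold, adjusted p = 1.4e-05).

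The phosphofructokinases catalyse the committed step, and all 3 isoforms rose. Pfkm, the muscle type, stood at 54.49 and 53.52 FPKM in KO, against 39.38 and 39.18 FPKM in WT (log2 fold change 0.45, adjusted p = 3.32e-05). Pfkp, the platelet type, stood at 48.21 and 48.49 FPKM in KO, against 35.42 and 36.10 FPKM in WT (0.42, adjusted p = 4.63e-05). Pfkl, the liver type and the most abundant of the 3, rose least (72.86 and 70.10 FPKM in KO, 59.83 and 59.64 FPKM in WT, 0.26 log2). Its share of the 3 isoforms was 41.5% and 40.7% in KO, against 44.4% and 44.2% in WT.

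The aldolases, which split the resulting sugar, moved in opposite directions. Aldoa (chromosome 7, 126795234 to 126800994), the widespread and muscle-rich form, stood at 610.34 and 609.98 FPKM in KO, against 385.01 and 385.40 FPKM in WT (log2 fold change 0.66, SE 0.03, adjusted p = 4.4e-06). Aldoc (chromosome 11, 78323073 to 78327781), the form of brain and retina, was at 8.52 and 8.36 FPKM in KO, against 16.04 and 15.72 FPKM in WT, 53.1% of the WT mean (−0.84, SE 0.04, adjusted p = 1.11e-05). This was the largest fall of the 38 genes, and the share of Aldoc in the sum of both was 1.38% and 1.35% in KO, against 4.0% and 3.92% in WT. Of 12 genes of retinal neurons, 11 were lower in the KO libraries, beside 21.1% of all genes tested. Of 15 skeletal muscle genes tested, 14 were higher, beside 33.5% of all genes tested. Whether these shifts bear on the aldolases was not tested. Tpi1, triose phosphate isomerase, stood at 455.51 and 457.85 FPKM in KO, against 347.47 and 345.60 FPKM in WT (0.40, adjusted p = 3.61e-05).

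The enzymes of the second part, which hold the highest levels of the pathway, changed little. Gapdh, the most abundant of the 38 genes, stood at 1692.18 and 1692.56 FPKM in KO, against 1710.15 and 1736.81 FPKM in WT (log2 fold change −0.03, 95% interval −0.10 to 0.05, adjusted p = 0.535). Pkm, pyruvate kinase, stood at 812.34 and 820.08 FPKM in KO, against 811.06 and 814.27 FPKM in WT (0.01, 95% interval −0.06 to 0.08), and these groups overlapped. Pgk1, phosphoglycerate kinase, stood at 413.72 and 442.56 FPKM in KO, against 408.05 and 403.85 FPKM in WT (0.08, 95% interval −0.01 to 0.17, adjusted p = 0.133). Eno1, the general enolase, did not pass either, with 877.85 and 864.27 FPKM in KO, against 836.23 and 831.18 FPKM in WT (0.06, adjusted p = 0.118). The neuronal enolase Eno2 was low, at 16.78 and 17.67 FPKM in KO and 17.63 and 18.63 FPKM in WT, and its groups overlapped (−0.07, adjusted p = 0.243). Pgam1, phosphoglycerate mutase, was the exception and rose to 316.38 and 321.36 FPKM in KO, against 267.93 and 265.77 FPKM in WT (0.26, adjusted p = 0.000288). The signs of these small values depend on scaling. With TPM Gapdh (0.095), Pgk1 (0.20), Eno1 (0.18) and Pkm (0.13) were called higher, and with scaling that leaves out crystallin and erythroid genes Gapdh (−0.11), Eno2 (−0.15) and Pkm (−0.075) were called lower.

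Several of these values rest on sequence that is shared with other annotated genes. In the longest coding transcript of each gene in GENCODE M21, 50-base stretches also present in transcripts of other genes were counted. Their share was 82.5% for Gapdh, 72.2% for Eno1, 68.0% for Pgk1, 62.4% for Bnip3, 41.5% for Pgam1 and 34.4% for Pkm. It was 27.0% for Ldhb, 25.3% for Gpi1, 16.6% for Ldha and 13.5% for Aldoa. The sources used here do not give how the authors divided such reads, so the levels of these genes are uncertain. In the second part of the pathway the share ran from 34.4% to 82.5%, apart from Eno2 (0.255%). In the first part it was at most 25.3%. For the difference between these parts, place in the pathway and shared sequence therefore cannot be told apart. Pfkp shares 17.1% with its neighbour Pitrm1 and Ankrd37 10.5% with its neighbour Lrp2bp. For Egln3, P4ha2, Ddit4, Adm, Hk2, Slc16a3 and Pdk1 the share was 0.

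The lactate dehydrogenases also moved apart. Ldha (chromosome 7, 46842274 to 46855627), which favours the conversion of pyruvate to lactate, stood at 630.39 and 635.58 FPKM in KO, against 466.60 and 470.37 FPKM in WT (log2 fold change 0.43, SE 0.03, adjusted p = 2.95e-05). Ldhb (chromosome 6, 142490249 to 142507957), the form of tissues that oxidise lactate, was at 69.45 and 69.99 FPKM in KO, against 81.91 and 78.99 FPKM in WT (−0.20, adjusted p = 0.00147), and its call was lost with TPM (−0.08, adjusted p = 0.0669). The share of Ldhb in the sum of both does not depend on scaling. It was 9.92% in each KO library, against 14.9% and 14.4% in WT libraries.

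**Figure D4:**
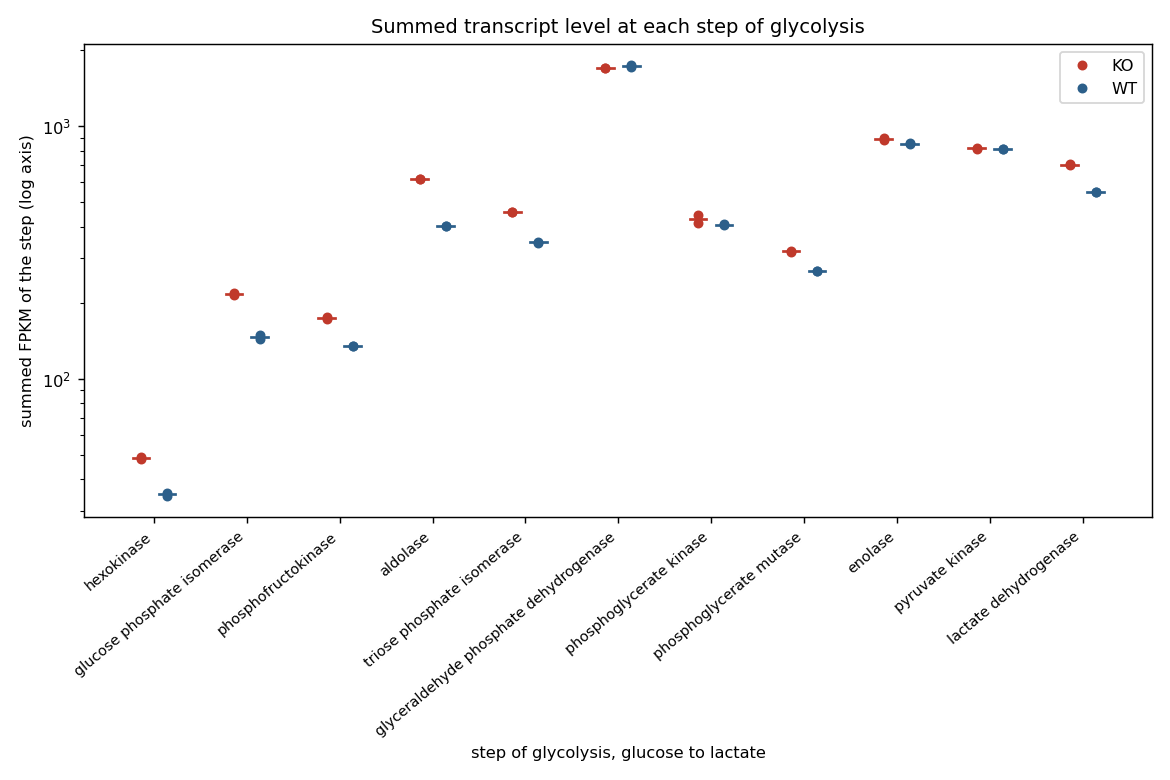
Summed FPKM in each library (log axis) of the listed enzymes at each step from glucose to lactate, KO left and WT right, with a bar at the mean of each pair. The KO points lie clear above WT at the first 5 steps, at phosphoglycerate mutase and at lactate dehydrogenase, and the groups lie close together at glyceraldehyde phosphate dehydrogenase, enolase and pyruvate kinase.

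Of the 4 carriers, Slc16a3 and Slc2a3 rose most. Slc16a3 (chromosome 11, 120948484 to 120959000), the lactate exporter MCT4 of glycolytic cells such as fast muscle, stood at 48.64 and 48.36 FPKM in KO, against 27.89 and 28.33 FPKM in WT (1.73-fold, log2 fold change 0.77, SE 0.03, adjusted p = 4.18e-06). Slc16a1, the general lactate carrier MCT1, stood at 10.82 and 11.25 FPKM in KO and at 11.29 and 11.13 FPKM in WT, groups that overlapped (−0.02, 95% interval −0.13 to 0.09). The share of Slc16a3 in the sum of both was 81.8% and 81.1% in KO, against 71.2% and 71.8% in WT. Slc2a3, the high-affinity glucose transporter GLUT3 known from neurons, stood at 13.62 and 14.59 FPKM in KO, against 8.74 and 7.53 FPKM in WT (1.73-fold, adjusted p = 0.000194). Slc2a1, the general glucose transporter GLUT1, rose less, to 227.72 and 232.79 FPKM in KO, against 207.08 and 201.16 FPKM in WT (1.13-fold, adjusted p = 0.00262), and made up most of the pair in every library, with Slc2a3 at 5.64% and 5.90% in KO, against 4.05% and 3.61% in WT.

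Of the kinases that set the flow, Pfkfb3 and Pdk1 changed by more than Pfkfb4 and Pdk3. Pfkfb3 (chromosome 2, 11471430 to 11554071), which makes the allosteric activator of phosphofructokinase, stood at 22.82 and 23.29 FPKM in KO, against 12.67 and 13.17 FPKM in WT (1.78-fold, adjusted p = 1.04e-05). Its relative Pfkfb4 stood at 6.09 and 5.47 FPKM in KO, against 4.47 and 4.86 FPKM in WT (1.24-fold, adjusted p = 0.021). Pdk1, which inhibits pyruvate dehydrogenase and so keeps pyruvate from the mitochondrial cycle, stood at 45.12 and 42.61 FPKM in KO, against 28.79 and 28.26 FPKM in WT (1.54-fold, adjusted p = 2.65e-05). Pdk3, of the same family, stood at 14.08 and 13.87 FPKM in KO, against 12.56 and 12.69 FPKM in WT (1.11-fold, adjusted p = 0.0282). The calls of Pdk3 and Pfkfb4 are weak. Pdk3 did not pass without any 1 of the 4 libraries (adjusted p 0.0746 to 0.121), with median-of-ratios scaling (0.111) or with scaling that leaves out crystallin and erythroid genes (0.285). Pfkfb4 did not pass without KO replicate 1 (0.132), without WT replicate 1 (0.111), without a filter (0.0593) or with the same scaling (0.0587).

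Shares within a library do not depend on how libraries are scaled. For each of the 10 shares the exact two-sided permutation test over the 4 libraries gave p = 0.333, the smallest value that 2 against 2 libraries allow, so none can pass a threshold of 0.05, before or after adjustment over the 10. The largest differences, KO minus WT, were 11.7 percentage points for Hk2 (40.2% ± 0.02 in KO, 28.5% ± 0.96 in WT, SD, n = 2 each), 9.98 points for Slc16a3 (81.5% ± 0.48 in KO, 71.5% ± 0.43 in WT) and 7.97 points for P4ha2 (34.8% ± 0.34 in KO, 26.8% ± 0.79 in WT). The difference was −4.73 points for Ldhb, −3.21 points for Pfkl and −2.59 points for Aldoc. The share of Eno2 in the enolases was 1.88% and 2.0% in KO, against 2.06% and 2.19% in WT.

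**Figure D5:**
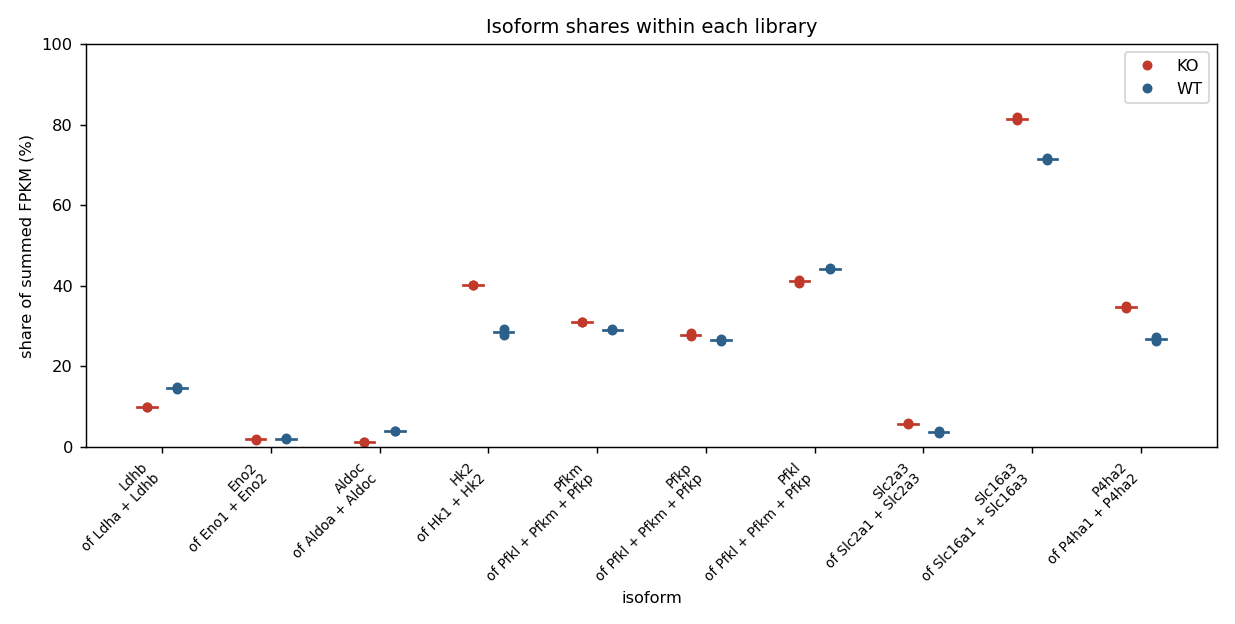
Share (%) of 1 isoform in the summed FPKM of its named pair or trio, in each library, KO left and WT right, with a bar at the mean of each pair. Hk2, Slc16a3 and P4ha2 take a larger share in KO, and Ldhb and Aldoc a smaller one.

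Other genes of both pathways were counted from lists apart from the 38, drawn up with earlier results of these data known. Of 26 further genes of glycolysis and pyruvate use that were tested, 11 were higher (42.3%) and 5 lower (19.2%), beside 33.5% and 21.1% of all genes. Their median log2 fold change was 0.04, close to that of all genes. The largest rises at a mean of at least 5 FPKM were those of the muscle enolase Eno3 (139.57 and 140.05 FPKM in KO, 81.62 and 78.32 FPKM in WT, 1.75-fold), Pdk2 (1.33-fold) and Pdha1, a subunit of pyruvate dehydrogenase (1.29-fold). Falls at that level included those of Bpgm, the bisphosphoglycerate mutase of red cells (31.29 and 32.14 FPKM in KO, 39.53 and 39.40 FPKM in WT, 0.804-fold), and G6pc3 (0.847-fold). In the same libraries 6 of 7 erythroid genes were higher in KO, beside 33.5% of all genes tested. Pgam2, the muscle mutase, chosen after its value was seen, was 0.924-fold (52.89 and 49.67 FPKM in KO, 55.38 and 55.57 FPKM in WT, adjusted p = 0.0399). Both muscle enzymes stand beside a median log2 fold change of 1.06 for the skeletal muscle list. Whether the shifts of muscle and erythroid genes bear on these enzymes was not tested.

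Of 44 further hypoxia response genes that were tested, 32 were higher (72.7%) and 3 lower (6.82%), beside 33.5% and 21.1% of all genes, and the median was 0.32. Stc2, a secreted glycoprotein induced by stress, stood at 13.58 and 11.73 FPKM in KO, against 3.99 and 4.39 FPKM in WT (3.02-fold, log2 fold change 1.39, adjusted p = 1.55e-05). Lox, which crosslinks collagen, stood at 113.27 and 115.74 FPKM in KO, against 49.28 and 48.42 FPKM in WT (2.34-fold), and the carbonic anhydrase Car12 was 2.07-fold higher. The falls were those of the heme oxygenase Hmox1 (17.67 and 17.33 FPKM in KO, 34.61 and 35.41 FPKM in WT, log2 fold change −0.96, adjusted p = 2.82e-06), Vldlr (−0.28) and Rora (−0.24). Vegfa, the vessel growth factor and a classical HIF target, named after its value was seen, stood at 151.25 and 147.89 FPKM in KO, against 90.31 and 92.88 FPKM in WT (1.63-fold, adjusted p = 4.86e-06). Several genes of this list act on collagen, such as Lox and, named outside the ranking, Plod1 and Plod2. The mesenchyme genes had a median log2 fold change of 1.13 in the same libraries. Whether that shift bears on this list was not tested.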

How the data were processed

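Libraries were made from Trizol-extracted total RNA by Illumina protocols, per the labels. The authors deposited FPKM and TPM values per gene for each library, per the file headers. HISAT2, Cufflinks, TopHat and DESeq, with no roles or versions, and the builds GRCm38 and GRCh38 are listed per the submitters' processing notes. The sources used here do not give the annotation, filters, use of strand or treatment of shared reads. FPKM divides by all fragments, so a fall of abundant genes such as crystallins raises the values of other genes. A rise of abundant genes, such as the erythroid ones, lowers them. The part of each in the changes reported here was not tested.

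The 4 libraries were grouped by the labels. Over single-transcript genes, low FPKM values were within 0.15 of whole fragments in 53.8% to 63.8% of cases, too few to recover counts. Chance gives 30.0% for a depth fixed beforehand. Here the depth was chosen to bring these same values closest to whole fragments, so the excess over 30.0% is not a test. The depths are estimates, and the low values behind them were picked with a preset depth close to these estimates. Where the mean reached 1 FPKM, log2(FPKM + 1) was tested by genotype in limma 3.58.1 with its trend option, under R 4.3.3, with Benjamini-Hochberg adjustment over all genes tested. The code was checked on simulated data. No set test was run. The members and lists were chosen with earlier results of these data known. Values in every library are given for members that passed with a log2 fold change of at least 0.3 in size and for Slc2a1, Ldha, Ldhb, Gapdh, Hif1a and Epas1, with others where a sentence turns on them. Of the other pathway genes, those called and averaging 5 FPKM or more were ranked by size. The top 3 in each direction were chosen per list, and 1 of these is not reported here. Positions and promoters are from RefSeq (GRCm38.p6), matched by Entrez number. Slc2a3, Epas1 and Ndrg1 had no promoter entry. Python 3.11.15 with scipy 1.17.1 was used for the exact permutation tests.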

Additional observations from a re-analysis of the deposited data

How the results depend on the processing

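Alternatives were no filter, a pseudocount of 0.1, a minimum of 5 FPKM in 2 or more libraries, TPM, scaling without crystallin and erythroid genes, median-of-ratios scaling, the replicate number as a block, and leaving out each library. The count of metabolic genes called lower was 2, and it became 1 with TPM and 5 with scaling without crystallin and erythroid genes. The median log2 fold change of the metabolic genes (0.26) became 0.378 with TPM, 0.175 with scaling without crystallin and erythroid genes and 0.204 with median-of-ratios scaling, and ranged from 0.227 to 0.282 when 1 library was left out. That of the hypoxia genes with both HIF subunits (0.52) became 0.657 with TPM. It was 0.444 with scaling without crystallin and erythroid genes and 0.472 with median-of-ratios scaling. Leaving out 1 library gave 0.498 to 0.599. Signs turned in genes that did not pass the test. With TPM this held for Gapdh (0.095), Eno2 (0.046) and Slc16a1 (0.095). With scaling without crystallin and erythroid genes it held for Pgk1 (−0.006), Eno1 (−0.018) and Pkm (−0.075), and with median-of-ratios scaling for Pkm (−0.046). With 1 library left out Pkm ranged from −0.001 (without KO replicate 2) to 0.013, and Slc16a1 from −0.047 to 0.005 (without KO replicate 1). The cause was not tested. With the replicate number as a block, 17 metabolic genes were higher and 2 lower, 10 hypoxia genes were higher and 2 lower, and no call of the 38 changed. Deviations of same-numbered libraries had a correlation of 0.0439 across genes, and the libraries share only a number. Adm and Car9 left the test under the minimum of 5 FPKM. A fit with 1 library in an arm assumes that it varies like the other arm.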
